A study of Homo sapiens with 12 samples.

Results

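The ADAM, ADAMTS and TIMP genes were examined in MDA-MB-231 cells after knockdown of NONO or of PKM2. Members were taken by name (ADAM, ADAMTS or ADAMTSL followed by a number, and TIMP1 to TIMP4) from the genes present in both deposited tables, which gave 50 of 60558 genes: 22 ADAM, 19 ADAMTS, 5 ADAMTSL and 4 TIMP genes. The naming rule itself uses no expression value, though the family was picked with earlier results of these data known. MDA-MB-231 is an established human triple-negative breast cancer (TNBC) line. RNA-seq was available for 12 libraries in 2 experiments, each with 3 negative control (NC) libraries and 3 knockdown libraries, and each knockdown had its own NC group. The NC libraries carry the genotype label WT, and the design text says that siRNA was used for both targets; the labels give neither the dose nor the time of knockdown, nor whether the libraries of a group came from separate cultures, so the P values measure only the spread between these libraries, which may be technical. In bulk RNA, fewer cells of a kind and less RNA per cell cannot be told apart.

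ADAM proteins are membrane-anchored proteins with a metalloprotease and a disintegrin domain, and the catalytic members cut growth factors, cytokines and receptors off the cell surface, a step called ectodomain shedding. ADAMTS proteins are secreted relatives that carry thrombospondin repeats and cut proteoglycans, procollagens and other matrix proteins, whereas the ADAMTSL proteins keep the repeats but have no protease domain. The TIMP proteins are secreted inhibitors of the matrix metalloproteases and, to an extent that differs between TIMPs, of some ADAM and ADAMTS enzymes. Shedding and matrix turnover are linked to the invasion of breast cancer cells, for which MDA-MB-231 is a common model.

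Sequences are shown for the promoters of 3 members that the results turn on: ADAMTSL4, which was lower after both knockdowns, ADAM15, which was higher after NONO and lower after PKM2 knockdown, and TIMP3, which was higher after NONO knockdown. Each run covers 250 bases before to 50 bases after the gene start in the RefSeq table of GRCh38.p14, all on the plus strand, and lies at chr1:150549158-150549457 for ADAMTSL4, chr1:155051066-155051365 for ADAM15 and chr22:32801455-32801754 for TIMP3. Capitals mark the GC box letters GGGCGG or their reverse complement.
ADAMTSL4: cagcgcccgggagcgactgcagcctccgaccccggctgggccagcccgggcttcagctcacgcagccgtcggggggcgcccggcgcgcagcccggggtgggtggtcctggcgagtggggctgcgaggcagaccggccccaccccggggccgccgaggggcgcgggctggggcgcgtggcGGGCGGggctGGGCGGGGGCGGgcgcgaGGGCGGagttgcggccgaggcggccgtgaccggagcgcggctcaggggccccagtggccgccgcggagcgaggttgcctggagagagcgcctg
ADAM15: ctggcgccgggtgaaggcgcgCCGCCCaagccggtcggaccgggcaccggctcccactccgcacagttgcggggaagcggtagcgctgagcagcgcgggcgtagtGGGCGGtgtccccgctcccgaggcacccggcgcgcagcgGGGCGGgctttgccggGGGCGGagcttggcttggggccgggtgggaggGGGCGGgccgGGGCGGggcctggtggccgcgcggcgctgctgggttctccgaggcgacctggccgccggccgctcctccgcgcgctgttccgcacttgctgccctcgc
TIMP3: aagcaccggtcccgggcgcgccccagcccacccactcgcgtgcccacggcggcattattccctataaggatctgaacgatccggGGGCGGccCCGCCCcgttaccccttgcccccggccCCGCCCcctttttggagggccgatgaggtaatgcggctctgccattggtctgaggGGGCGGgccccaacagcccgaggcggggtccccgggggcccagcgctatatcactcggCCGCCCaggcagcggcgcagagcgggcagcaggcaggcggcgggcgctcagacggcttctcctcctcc
The 3 windows held 4, 6 and 5 matches, in that order, and neighbouring matches can overlap. A GC box match was found in 45.0% of all 35116 promoters in the table and in 25 of the 32 members that the table holds. Here and below, the percentages count promoters, whereas a member counts where any promoter listed for it matches, so the measures are unlike. The AP-1 letters TGANTCA, read on both strands, were found in 7.7% of all promoters and in 1 member (ADAMTS12), and the TEAD letters GGAATG, also read on both strands, in 14.0% of all promoters and in 5 members (ADAM17, ADAMTS6, ADAMTS12, ADAMTS13 and ADAMTS20). The 3 windows shown hold neither of these. GC content was 82.3%, 79.3% and 72.7%, against a median of 58.7% over all promoters. Such matches describe the letters in these windows only.

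The libraries held 19861762 to 28455268 estimated counts. The targeted genes fell in their own experiments. NONO was at 391, 358 and 369 CPM (the count scaled to library size after TMM normalization) in its NC libraries and at 61.8, 64.3 and 61.9 CPM after NONO knockdown, and PKM, whose counts do not separate PKM1 from PKM2, went from 2276, 2211 and 2324 CPM to 218, 228 and 234 CPM after PKM2 knockdown. Markers of the line were present, with VIM at 3811 to 5538 CPM, CD44 at 355 to 408 CPM and KRT18 at 172 to 385 CPM over all 12 libraries. Low markers were at most 2 counts (CDH1), 11 counts (ESR1 and PGR), 3.71 CPM (EPCAM) and 80.3 CPM (ERBB2). Of 6 markers of other cells, CD3E was listed at 0 in every library, PTPRC, DCN and ALB did not exceed 5 counts, and ACTA2 and PECAM1 lay between 0.258 and 3.04 CPM. NC replicate 1 of the NONO experiment and PKM2 knockdown replicate 3 lay farthest from their replicates, with a chi-square per degree of freedom of 8.89 to 13.1 against 2.34 to 4.41 for the other pairs.

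Of the 50 members, 27 passed the count filter in both experiments, ADAM21 passed it only in the PKM2 experiment, and 22 passed it in neither. ADAM21 passed it through its knockdown libraries, where it was higher, so its calls below are not independent of the filter. Of these 22, 11 were listed at 0 in every library (ADAM2, ADAM6, ADAM7, ADAM18, ADAM30, ADAM33, ADAMTS2, ADAMTS10, ADAMTS14, ADAMTS18 and ADAMTS19). A count of 0 allows a level of up to 3 counts, which was 0.102 to 0.153 CPM depending on the library, for counting error only. Another 7 (ADAM5, ADAM20, ADAM29, ADAMTS5, ADAMTS8, ADAMTS20 and ADAMTSL2) never exceeded 3 counts. TIMP4, ADAM28, ADAMTS4 and ADAMTS13 had more than 3 counts in some library, at most 6, 13, 5 and 18, and were too low to test.

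On the TPM scale, which corrects for gene length and library size, the inhibitors TIMP1 and TIMP2 were the most abundant members in NC cells. TIMP1 was at 176 ± 27.9 TPM and TIMP2 at 166 ± 6.76 TPM in the NC libraries of the NONO experiment (SD, n = 3), and at 166 ± 11.4 and 166 ± 1.31 TPM in those of the PKM2 experiment, so that their order could not be told from these spreads. They were followed by ADAM9, ADAM15, ADAM10, ADAM8, TIMP3, ADAMTS1, ADAMTSL4 and ADAM17 in both experiments, from 103 TPM for ADAM9 to 22.3 TPM for ADAM17 in the NONO experiment and from 108 to 22.7 TPM in the PKM2 experiment.

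**Figure D1:**
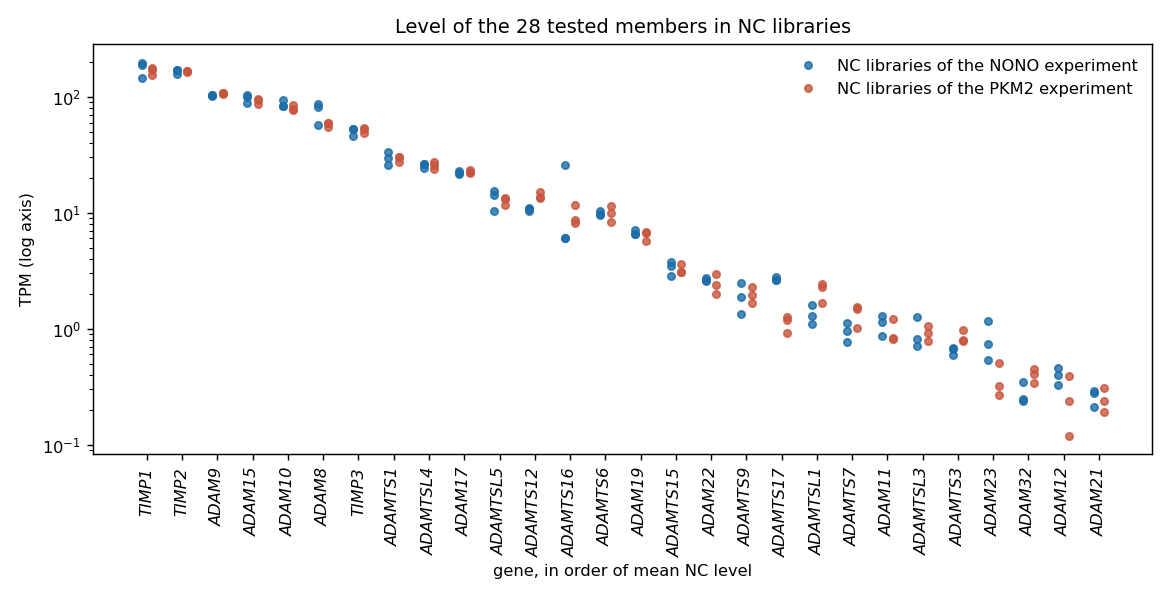
TPM of the 28 members tested in at least 1 experiment, on a log axis, in the NC libraries of the NONO experiment (blue) and of the PKM2 experiment (red), with 1 point per library. TIMP1 and TIMP2 lead in both, and ADAM21 lies lowest, at a mean of 0.260 and 0.247 TPM.

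A member was called where the edgeR quasi-likelihood test against its own NC group gave a Benjamini-Hochberg adjusted P below 0.05 over all genes tested. After NONO knockdown, 8 of 27 members were lower (ADAM10, ADAM11, ADAM17, ADAMTS1, ADAMTS6, ADAMTS7, ADAMTS15 and ADAMTSL4), where 17.2% of all 14832 genes tested were called lower. Another 5 were higher (TIMP3, ADAM9, ADAM15, ADAM19 and ADAMTSL1), against 16.2% of all genes. After PKM2 knockdown, 12 of 28 members were lower (TIMP3, ADAM11, ADAM15, ADAM22, ADAM23, ADAMTS1, ADAMTS3, ADAMTS7, ADAMTS12, ADAMTS15, ADAMTSL4 and ADAMTSL5), against 34.7% of all 15524 genes tested, and 7 were higher (TIMP2, ADAM8, ADAM10, ADAM21, ADAMTS6, ADAMTS17 and ADAMTSL1), against 33.6%. The members' shares were 29.6% lower and 18.5% higher after NONO knockdown, and 42.9% lower and 25.0% higher after PKM2 knockdown. The median log2 fold change of the tested members was -0.02 after NONO knockdown and -0.19 after PKM2 knockdown, beside -0.01 for all genes in both. limma on log2(TPM + 1), which left out the lowest members, did not call ADAM9, ADAM11, ADAM19, ADAMTS15 or ADAMTSL1 after NONO knockdown, nor ADAM8 (at -0.01 there), ADAM10, ADAMTS1, ADAMTS6 or ADAMTS17 after PKM2 knockdown. Without its filter it also did not call ADAMTS7 after NONO knockdown or ADAM11 after PKM2 knockdown.

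The study's methods instead ask for a change of more than 2-fold and a P below 0.05 before adjustment. By these cutoffs ADAMTSL4 alone was lower after NONO knockdown (2.16% of all genes) and no member was higher (0.789% of all genes). They gave 6 lower members after PKM2 knockdown, ADAM11, ADAM22, ADAM23, ADAMTS3, ADAMTS7 and ADAMTSL4, beside 13.8% of all genes, and 1 higher member, ADAM21, beside 7.05%. ADAM21 was let in by the count filter on the side where it was higher, so it carries no weight as a higher member. 

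The 2 responses were then compared directly. In a fit of all 12 libraries, the difference between the log2 fold changes (PKM2 knockdown minus NONO knockdown, each against its own NC group) was called for 17 of 28 members, 60.7%, beside 53.1% of all 15995 genes. The experiment and the targeted gene cannot be told apart in this difference. Among members tested in both experiments, 37.0% were called in both, beside 27.2% of all 14525 genes, and 18.5% were lower in both, beside 9.93%. Of the 10 members called in both experiments, 5 were lower in both (ADAM11, ADAMTS1, ADAMTS7, ADAMTS15 and ADAMTSL4), ADAMTSL1 was higher in both, and 4 went in opposite directions (TIMP3, ADAM10, ADAM15 and ADAMTS6), where 29.2% of all 3956 genes called in both did so. Of these 10, ADAM15 and ADAMTSL4 alone kept both calls in every alternative run. The PKM2 call was lost in some alternatives for TIMP3, ADAM10, ADAM11, ADAMTS1 and ADAMTS6. limma on log2(TPM + 1) did not call the difference for ADAM17, ADAM19, ADAM22, ADAMTSL4 or ADAMTSL5, nor, without its filter, for ADAM11 (-0.34), ADAM23 (0.10), ADAMTS7 (-0.47) or ADAMTS12. Called in neither were TIMP1, ADAM12, ADAM32, ADAMTS9, ADAMTS16 and ADAMTSL3.

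**Figure D2:**
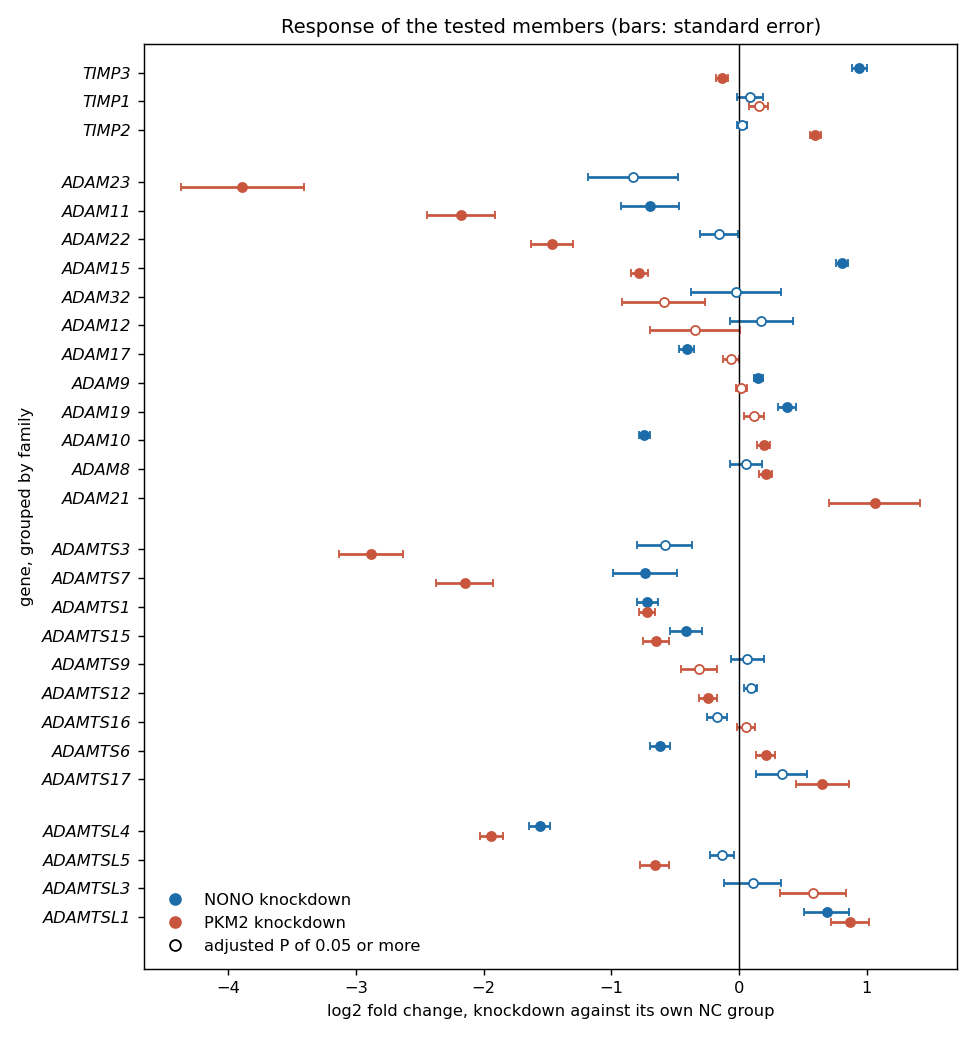
Log2 fold change of each tested member against its own NC group after NONO knockdown (blue) and PKM2 knockdown (red), grouped by family, with bars for the standard error and open points where the adjusted P was 0.05 or more. ADAM15 and TIMP3 lie on opposite sides of 0 in the 2 experiments, ADAMTSL4 lies far to the left in both, and the farthest point is ADAM23 after PKM2 knockdown at -3.89.

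Among the inhibitors, TIMP3 and TIMP2 each responded to a different knockdown. TIMP3, which binds to the matrix and inhibits ADAM17 and several ADAMTS enzymes, was at 153, 173 and 174 CPM in NC libraries and at 338, 320.4 and 301 CPM after NONO knockdown. Every knockdown library lay above every NC library, and the level rose to 192% of NC (log2 fold change 0.94, standard error 0.06, adjusted P = 1.06e-06). In the PKM2 experiment it was at 153, 163 and 168 CPM in NC libraries and at 150.3, 145 and 146 CPM after knockdown. These groups were separated by a small margin, and the fall to 91.3% of NC (log2 fold change -0.13, standard error 0.05, adjusted P = 0.0321) was lost on leaving out NC replicate 2 or 3 or knockdown replicate 1 or 2, with adjusted P values of 0.0524 to 0.143. It was also lost under DESeq2, without the count filter and with a replicate block, whereas limma on log2(TPM + 1) called it at -0.26. The difference between the knockdowns was -1.09 (standard error 0.08, adjusted P = 5.21e-09). TIMP3 lies within the span of SYN3, on the opposite strand, and shares no exon bases with it (chromosome 22, 32801701 to 32863043, GRCh38, GENCODE 29).

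TIMP2, an inhibitor that also takes part in activating pro-MMP2 with MMP14, was at 378, 404 and 397 CPM in NC libraries and at 403, 404 and 391 CPM after NONO knockdown. The groups overlapped (log2 fold change 0.02, standard error 0.04, adjusted P = 0.715). After PKM2 knockdown it was at 557, 576 and 575 CPM, against 383, 369.8 and 375 CPM in NC libraries, with no overlap. This was 151% of NC (log2 fold change 0.60, standard error 0.04, adjusted P = 1.74e-07), and the difference between the knockdowns was 0.56 (standard error 0.06, adjusted P = 3.43e-07). TIMP2 shares 198 exon bases with CEP295NL on the same strand, so some reads cannot be assigned to one of them, and 367 with AC022966.1 on the opposite strand. MMP2 itself did not exceed 1 count in any library.

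TIMP1 was called in neither experiment. Its level was 51.2, 69.1 and 64.7 CPM in NC libraries and 69.3, 69.2 and 58.0 CPM after NONO knockdown (log2 fold change 0.09, standard error 0.10, adjusted P = 0.569), and 59.5, 62.8 and 68.9 CPM and then 66.3, 67.6 and 78.8 CPM in the PKM2 experiment (log2 fold change 0.15, standard error 0.08, adjusted P = 0.0983). The groups overlapped in both. Without NC replicate 1, the lowest of the NONO experiment, the first value was -0.02, and without PKM2 knockdown replicate 1 the second was 0.21 with an adjusted P of 0.0425. TIMP4 had 1, 2 and 0 counts in the NC libraries of the NONO experiment and 0 in its knockdown libraries, and 0, 3 and 6 and then 1, 0 and 0 counts in the PKM2 experiment.

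The main ADAM sheddases did not move as a group. ADAM10, which sheds NOTCH receptors, cadherins and APP, was at 131, 127 and 136 CPM in NC libraries and at 76.5, 78.2 and 81.4 CPM after NONO knockdown. All 3 knockdown libraries lay below the NC range, at 59.9% of NC (log2 fold change -0.74, standard error 0.05, adjusted P = 1.06e-06). After PKM2 knockdown ADAM10 was at 137, 134 and 125 CPM, against 118, 112 and 116 CPM in NC libraries. These groups did not overlap either, at 114% of NC (log2 fold change 0.19, standard error 0.05, adjusted P = 0.00574), a call that limma on log2(TPM + 1) did not make (0.05). The 2 responses differed by 0.92 (standard error 0.07, adjusted P = 1.05e-08).

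ADAM17, the enzyme that releases TNF and several EGF receptor ligands, was at 60.3, 61.4 and 62.2 CPM in NC libraries and at 48.3, 47.3 and 42.9 CPM after NONO knockdown. The knockdown libraries were all below the NC libraries, at 75.3% of NC (log2 fold change -0.41, standard error 0.06, adjusted P = 0.000312). In the PKM2 experiment it was at 54.4, 58.9 and 55.5 CPM and at 56.5, 54.4 and 50.7 CPM, with overlap (log2 fold change -0.06, standard error 0.06, adjusted P = 0.384). The difference between the knockdowns was 0.33 (standard error 0.08, adjusted P = 0.0027) and was not called by limma on log2(TPM + 1), at 0.23. ADAM17 shares 1323 exon bases with IAH1 on the opposite strand, and how the counting treated strand is not given in the sources used here.

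ADAM15, a metalloprotease with an integrin-binding disintegrin domain, moved in opposite directions. It was at 112, 110.5 and 106 CPM in NC libraries and at 191, 198 and 186 CPM after NONO knockdown, or 175% of NC (log2 fold change 0.81, standard error 0.05, adjusted P = 4.24e-07). After PKM2 knockdown it was at 55.3, 65.6 and 65.3 CPM, against 108, 105 and 108 CPM in NC libraries, or 58.2% of NC (log2 fold change -0.78, standard error 0.07, adjusted P = 7.63e-07). No groups overlapped, and the 2 changes lay -1.60 apart (standard error 0.08, adjusted P = 1.15e-10). On log2(TPM + 1) limma called the rise after NONO knockdown at 0.48, and the ratio of TPM to CPM spanned 1.40 times over the 6 libraries of that experiment. It shares 306 exon bases with DCST1 on the same strand, so some reads cannot be assigned to one of them.

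ADAM9, a broadly expressed sheddase and the most abundant ADAM gene here, changed little. It was at 287, 278 and 277 CPM in NC libraries and at 315, 307 and 316 CPM after NONO knockdown, or 111% of NC with no overlap (log2 fold change 0.15, standard error 0.04, adjusted P = 0.0105). Without knockdown replicate 3 the adjusted P was 0.0556. In the PKM2 experiment it was at 295, 292 and 289 CPM and at 302, 298 and 288 CPM, with overlap (log2 fold change 0.02, standard error 0.04, adjusted P = 0.702). The 2 knockdowns differed by -0.15 (standard error 0.06, adjusted P = 0.0417); this call was lost on leaving out any 1 of 9 of the 12 libraries, at adjusted P values up to 0.149, and with relative log expression factors, without the count filter or with a replicate block.

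**Figure D3:**
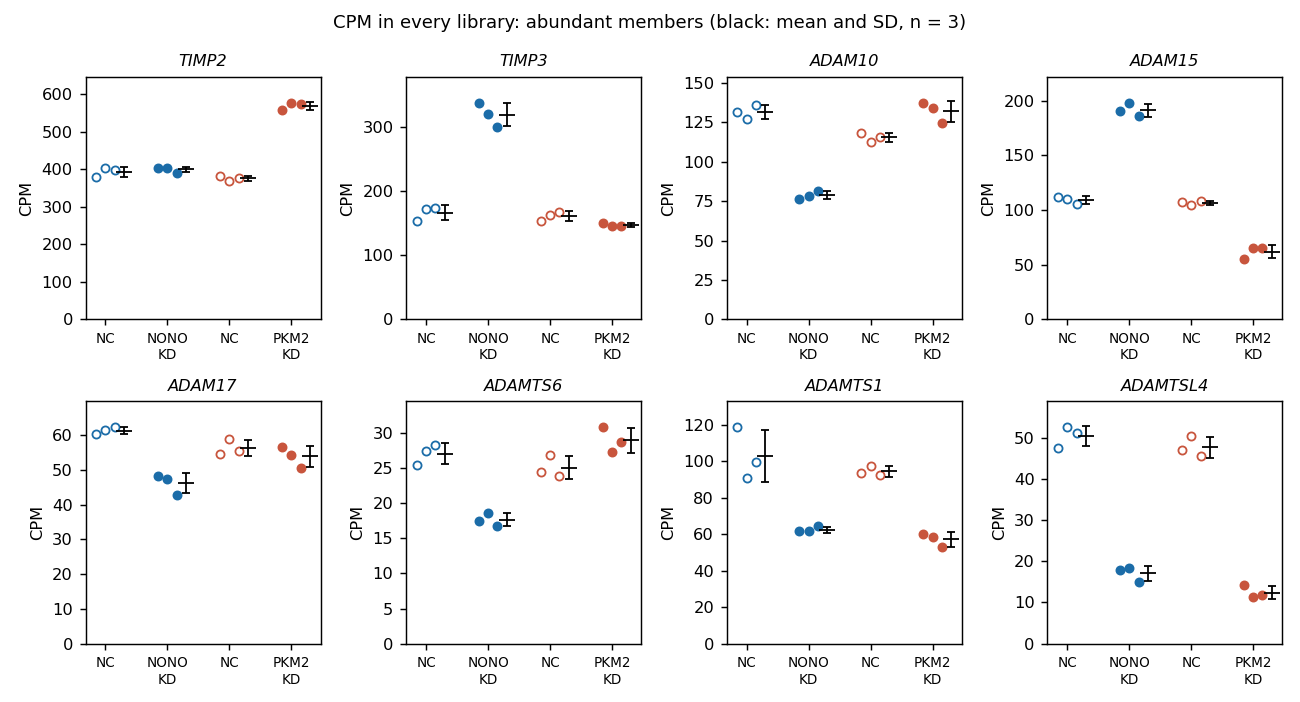
CPM in every library for 8 abundant members, with open points for NC and filled points for knockdown libraries of the NONO (blue) and PKM2 (red) experiments, and black marks for the mean and SD of 3 libraries. TIMP3 and ADAM15 rise after NONO knockdown and not after PKM2 knockdown, ADAM10 and ADAMTS6 fall after NONO knockdown and lie slightly above NC after PKM2 knockdown, and ADAMTS1 and ADAMTSL4 fall in both.

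ADAM8 and ADAM19 were the other well expressed ADAM genes. ADAM8, a sheddase found on leukocytes and in breast tumors, was at 101.4, 102 and 109 CPM in NC libraries and at 119.9, 122 and 118 CPM after PKM2 knockdown (log2 fold change 0.21, standard error 0.05, adjusted P = 0.00261), with no overlap. In the NONO experiment NC replicate 1 was low, at 104 CPM beside 163 and 149 CPM, and the knockdown libraries were at 149.9, 148 and 135 CPM (log2 fold change 0.06, adjusted P = 0.771). Without that library the NONO value was -0.10 and the difference between the knockdowns became called, at 0.32 (adjusted P = 0.00198). ADAM19, which takes part in heart development and sheds neuregulins, rose after NONO knockdown from 30.1, 30.4 and 30.6 CPM to 41.3, 41.2 and 35.6 CPM (log2 fold change 0.37, standard error 0.07, adjusted P = 0.00203), and was not called after PKM2 knockdown (0.12, adjusted P = 0.193). Its difference between the knockdowns, -0.27 (adjusted P = 0.0394), was lost on leaving out any 1 of 9 of the 12 libraries, at adjusted P values up to 0.129, and under every other fit that gives a P. ADAM12, the protease of placenta and muscle that is raised in many tumors, and ADAM32 stayed at or under 2.44 CPM in every library and were not called.

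ADAM11, ADAM22 and ADAM23 encode proteins of the nervous system whose protease domain is held to be inactive. All 3 were lower after PKM2 knockdown, where 34.7% of all genes tested were called lower. ADAM22, a receptor of LGI1, was at 8.19, 7.15 and 7.37 CPM in NC libraries and at 2.28, 3.35 and 2.62 CPM after PKM2 knockdown, or 36.3% of NC with no overlap (log2 fold change -1.46, standard error 0.16, adjusted P = 7.24e-06). After NONO knockdown it was at 6.88, 7.68 and 9.71 CPM, against 8.58, 8.25 and 10.2 CPM, with overlap (log2 fold change -0.16, adjusted P = 0.454). The difference was -1.32 (adjusted P = 9.9e-05). limma on TPM did not call it in any of its 3 settings, at -0.58 on log2(TPM + 1) with or without the filter and at -1.09 on log2(TPM + 0.1).

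ADAM11 went from 2.39, 2.58 and 2.54 CPM to 0.663, 0.430 and 0.555 CPM after PKM2 knockdown, or 22.1% of NC (log2 fold change -2.18, standard error 0.27, adjusted P = 1.67e-05). It was at 3.21, 3.19 and 2.71 CPM in the NC libraries of the NONO experiment and at 1.60, 2.39 and 1.63 CPM after NONO knockdown. Here too no knockdown library reached the NC range (log2 fold change -0.70, standard error 0.23, adjusted P = 0.0345). This call was lost without any NC library and without knockdown replicate 1 or 3 (adjusted P 0.0505 to 0.118), and DESeq2 did not make it. The difference between the knockdowns was -1.49 (adjusted P = 0.00147).

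ADAM23 rested on few counts, and in the PKM2 experiment it passed the count filter through its NC libraries, where it was higher. It was at 1.02, 1.15 and 1.09 CPM in NC libraries and at 0.124, 0.043 and 0.0396 CPM after PKM2 knockdown, which were 3, 1 and 1 counts. Summed over libraries and scaled to their sizes, 5 counts against 90 came to 6.34% of NC, with an exact 95% interval of 2.01% to 15.3% that covers counting error only (edgeR log2 fold change -3.89, standard error 0.48, adjusted P = 1.84e-05). In the NONO experiment it was at 0.853, 1.38 and 1.45 CPM and at 0.598, 0.915 and 0.559 CPM, with overlap (log2 fold change -0.83, standard error 0.35, adjusted P = 0.0932). Without NC replicate 1 the NONO value was -1.02 and its adjusted P was 0.0399. The 2 responses differed by -3.07 in edgeR (standard error 0.64, adjusted P = 0.000601). limma on log2(TPM + 1) without the filter, where the pseudocount exceeds such levels, gave a PKM2 value of -0.40 and a difference of 0.10 that was not called (adjusted P = 0.750).

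ADAM21, a testis-enriched gene with the close copies ADAM20P1 and ADAM21P1 whose reads the counting could share, had 16, 8 and 12 counts in NC libraries and 17, 24 and 25 counts after PKM2 knockdown. The groups did not overlap (log2 fold change 1.06, standard error 0.36, adjusted P = 0.0199), but DESeq2 did not make the call, and it was lost without NC replicate 2 or 3 or knockdown replicate 2 or 3 (adjusted P 0.0564 to 0.0812). It had 10, 11 and 8 and then 5, 2 and 4 counts in the NONO experiment, where it did not pass the filter. In the PKM2 experiment its knockdown libraries, where it was higher, brought it past the filter. The difference between the knockdowns was 2.36 (standard error 0.61, adjusted P = 0.00354).

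Of the 9 tested ADAMTS genes, 4 were lower (17.2% of all genes were) and none was higher (16.2% of all genes) after NONO knockdown by edgeR (0 at an unadjusted P below 0.05, and 0 by DESeq2). After PKM2 knockdown 5 were lower (34.7% of all genes) and 2 higher (33.6%). The median log2 fold change of the 9 was -0.42 and -0.31, beside -0.01 for all genes in each experiment. ADAMTS1, a protease of versican and aggrecan and the most abundant of the 9, was at 119, 90.97 and 99.6 CPM in NC libraries and at 61.6, 61.7 and 64.5 CPM after NONO knockdown (60.8% of NC, log2 fold change -0.72, standard error 0.08, adjusted P = 7.61e-05). In the PKM2 experiment it went from 93.5, 97.6 and 92.3 CPM to 60.5, 58.8 and 52.8 CPM (60.7% of NC, log2 fold change -0.72, standard error 0.06, adjusted P = 6.95e-07). All knockdown libraries lay below all NC libraries. The difference between the 2 responses was -0.01 with a standard error of 0.11. Over the alternatives this difference ranged from -0.12 to 0.35 and was never called. The PKM2 value of ADAMTS1 reached -0.43 there and was not called in any setting of limma on TPM. The ratio of TPM to CPM of ADAMTS1 spanned 1.60 times over the libraries of the PKM2 experiment. ADAMTS5, its neighbour on chromosome 21, did not exceed 2 counts in any library.

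ADAMTS6, a matrix protease that acts on fibrillins and latent TGF-β binding proteins, was at 25.4, 27.4 and 28.3 CPM in NC libraries and at 17.4, 18.6 and 16.8 CPM after NONO knockdown. It fell to 65.1% of NC with no overlap (log2 fold change -0.62, standard error 0.08, adjusted P = 0.000147). After PKM2 knockdown it was at 30.7, 27.3 and 28.7 CPM, against 24.4, 26.9 and 23.8 CPM (log2 fold change 0.21, standard error 0.07, adjusted P = 0.0248). These groups lay close to each other, and the call was lost without NC replicate 1 or 3 or knockdown replicate 1 (adjusted P 0.0826 to 0.103) and under limma on log2(TPM + 1), at 0.04. The 2 knockdowns differed by 0.82 (standard error 0.11, adjusted P = 5.53e-06).

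ADAMTS3 and ADAMTS7 fell deeply after PKM2 knockdown from low levels. ADAMTS3, a procollagen N-propeptidase that also takes part in VEGF-C processing, went from 3.48, 3.26 and 3.42 CPM to 0.497, 0.516 and 0.357 CPM, or 13.6% of NC (log2 fold change -2.88, standard error 0.25, adjusted P = 9.74e-07). It was at 3.01, 2.48 and 2.76 CPM and at 2.14, 1.63 and 1.73 CPM in the NONO experiment, which did not overlap but missed the threshold (log2 fold change -0.58, standard error 0.22, adjusted P = 0.0581). The difference was -2.31 (adjusted P = 1.09e-05).

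ADAMTS7, a protease of COMP and thrombospondin-1 with pseudogene copies that could share its reads, went from 3.62, 4.41 and 4.13 CPM to 0.704, 1.03 and 0.991 CPM after PKM2 knockdown, or 22.5% of NC (log2 fold change -2.15, standard error 0.22, adjusted P = 4.13e-06). After NONO knockdown it was at 2.84, 1.68 and 1.73 CPM, against 2.81, 3.91 and 3.69 CPM, and the groups overlapped (log2 fold change -0.74, standard error 0.25, adjusted P = 0.0402). That call was lost under DESeq2 and without NC replicate 2 or 3 or knockdown replicate 2 or 3 (adjusted P 0.113 to 0.145). The difference between the knockdowns was -1.43 (adjusted P = 0.00192).

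The other ADAMTS genes changed by less than a log2 fold change of 1. ADAMTS15, a hyalectanase, was lower in both experiments (-0.42, adjusted P = 0.0231, and -0.65, adjusted P = 0.000117). Its NONO call was lost without NC replicate 2 or 3 or knockdown replicate 1 or 3, at adjusted P values of 0.0519 to 0.103. ADAMTS12, which cleaves COMP, was lower after PKM2 knockdown (-0.24, adjusted P = 0.00812), at 0.09 after NONO knockdown (adjusted P = 0.202, and 0.0412 without NC replicate 1), with a called difference of -0.35 (adjusted P = 0.00342). ADAMTS17 was higher after PKM2 knockdown (0.65, adjusted P = 0.0157, and 0.0641 without NC replicate 1). ADAMTS9 and ADAMTS16 were not called, with log2 fold changes of 0.07 and -0.17 after NONO knockdown and of -0.31 and 0.06 after PKM2 knockdown.

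**Figure D4:**
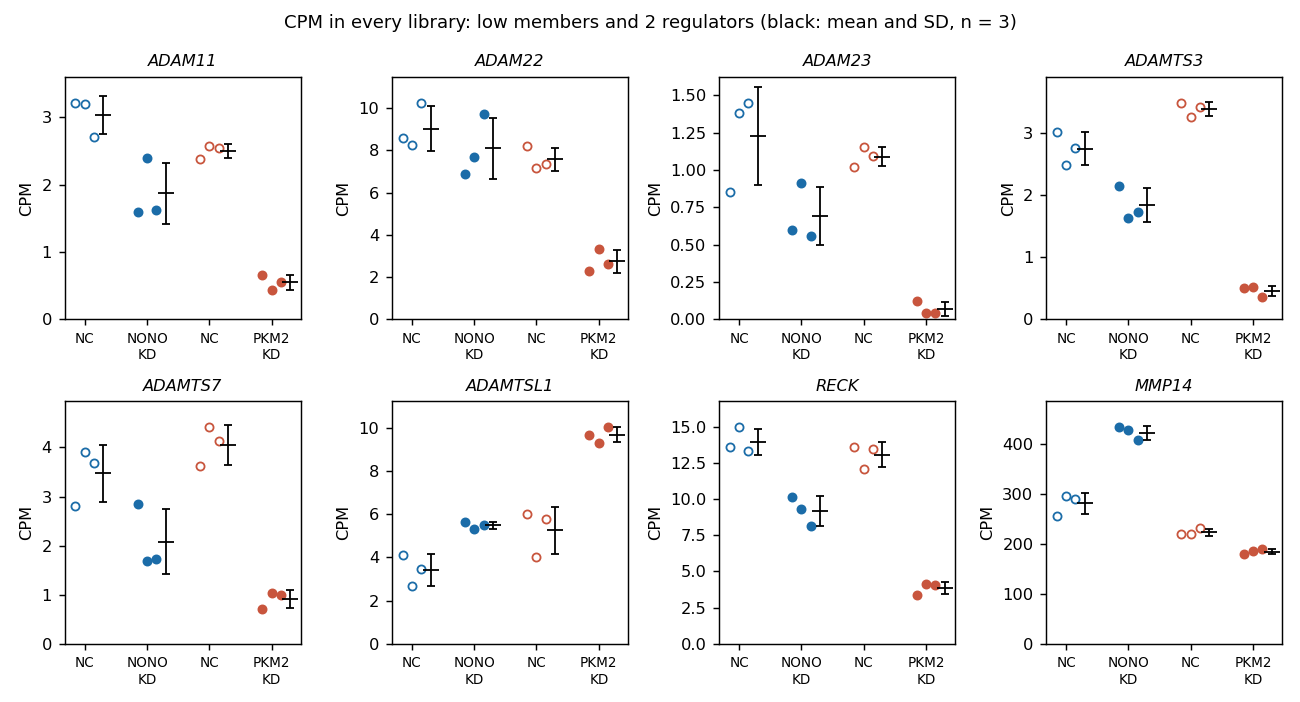
CPM in every library for 6 members of low level and the regulators RECK and MMP14, drawn as in the plot of the abundant members. ADAM11, ADAM22, ADAM23, ADAMTS3 and ADAMTS7 lie far lower after PKM2 knockdown, ADAMTSL1 is higher after both knockdowns, and MMP14 moves in opposite directions.

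Among all members, ADAMTSL4 was the only one called with a log2 fold change below -1 in both experiments. ADAMTSL4, a matrix protein associated with fibrillin-1 microfibrils, was at 47.6, 52.4 and 51.0 CPM in NC libraries and at 17.8, 18.5 and 14.9 CPM after NONO knockdown. It fell to 33.9% of NC (log2 fold change -1.56, standard error 0.08, adjusted P = 3.28e-07). In the PKM2 experiment it was at 47.0, 50.3 and 45.5 CPM and at 14.1, 11.3 and 11.7 CPM, or 26.1% of NC (log2 fold change -1.94, standard error 0.09, adjusted P = 3.89e-09). The groups were far apart in both, and every alternative run kept both calls. The fall after PKM2 knockdown was the deeper by -0.39 (standard error 0.12, adjusted P = 0.014), which missed the threshold without NONO knockdown replicate 2 (adjusted P = 0.0505) and in all 3 settings of limma on TPM (adjusted P up to 0.153). ADAMTSL4 is one of the genes the study itself chose from these libraries, so its fall here is not independent evidence. The paper also measured ADAMTSL4 by RT-qPCR after either knockdown in MDA-MB-231 cells, which is not re-examined here. It shares 736 exon bases with ADAMTSL4-AS1 on the opposite strand (chromosome 1, 150549369 to 150560937, GRCh38, GENCODE 29).

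ADAMTSL1, also called punctin, was the only member called higher after both knockdowns. It was at 4.12, 2.67 and 3.46 CPM in NC libraries and at 5.64, 5.34 and 5.49 CPM after NONO knockdown (161% of NC, log2 fold change 0.69, standard error 0.18, adjusted P = 0.0112). In the PKM2 experiment it went from 6.01, 4.01 and 5.79 CPM to 9.70, 9.33 and 10.03 CPM (183% of NC, log2 fold change 0.87, standard error 0.15, adjusted P = 0.000247). Neither pair of groups overlapped, and the difference between the responses was 0.17 with a standard error of 0.23. The NONO call was not made in any setting of limma on TPM. ADAMTSL5 was lower after PKM2 knockdown (-0.66, adjusted P = 0.000256) and at -0.13 after NONO knockdown (adjusted P = 0.321), with a called difference of -0.54 (adjusted P = 0.00544). ADAMTSL3 was at 0.11 and 0.58 with adjusted P values of 0.757 and 0.064, the second 0.0127 without PKM2 knockdown replicate 3.

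Summed over each family as TPM, the ADAMTSL level fell from 41.2 ± 2.68 to 21.8 ± 0.862 TPM after NONO knockdown and from 41.5 ± 0.965 to 18.4 ± 1.497 TPM after PKM2 knockdown (SD, n = 3), without overlap. These sums lie mostly on ADAMTSL4 and ADAMTSL5. The ADAMTS sums were 72.8% and 79.7% of NC, the ADAM sums 99.9% and 85.1%, and the TIMP sums 110% and 116%. In the NONO experiment the ADAMTS sum of NC replicate 2 was 83.3 TPM, beside 68.1 and 66.4 TPM in the other NC libraries. That sum includes an ADAMTS16 TPM value out of step with its CPM, given under the last observations. The ADAM sum hardly moved after NONO knockdown while ADAM10 and ADAM17 fell and ADAM9, ADAM15 and ADAM19 rose. With 3 libraries against 3, the smallest P that an exact permutation test of such sums can give is 0.1, so no test was made.

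**Figure D5:**
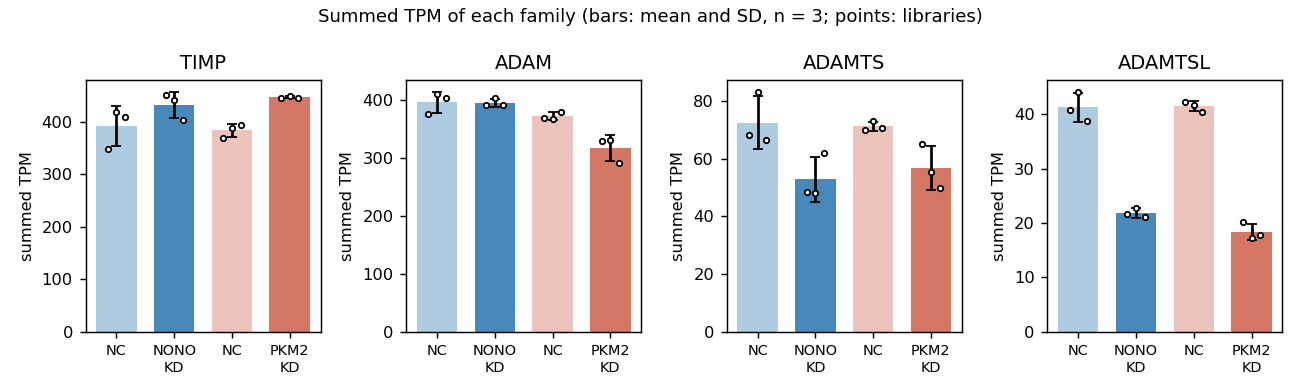
Summed TPM of each family in the NC and knockdown libraries of the NONO (blue) and PKM2 (red) experiments, with bars for the mean, lines for the SD of 3 libraries and 1 point per library. The ADAMTSL sum falls to 52.9% and 44.4% of NC, whereas the TIMP sum is at 110% and 116% of NC, with overlapping libraries in the NONO experiment.

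By the domains given beside each gene in the deposited tables, 39 of the 50 members carry a metalloprotease domain. Of the 20 tested after NONO knockdown, 7 were lower and 3 higher, beside 17.2% and 16.2% of all genes, and of the 21 tested after PKM2 knockdown, 9 were lower and 5 higher, beside 34.7% and 33.6%. Of the 24 members with a thrombospondin repeat, 13 were tested in each experiment. Of these, 5 were lower and 1 higher after NONO knockdown and 7 lower and 3 higher after PKM2 knockdown, to be read against the same shares of all genes.

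Genes that mature, carry or restrain these enzymes were counted from a list of 20, of which 18 were tested. After NONO knockdown 5 were lower and 1 was higher (17.2% and 16.2% of all genes were), and after PKM2 knockdown 10 were lower and 4 higher (34.7% and 33.6% of all genes). Their median log2 fold change was -0.10 and -0.33, beside -0.01 for all genes in both. RECK, a membrane-anchored inhibitor of metalloproteases, was at 13.6, 15.0 and 13.3 CPM in NC libraries and at 10.2, 9.31 and 8.14 CPM after NONO knockdown (log2 fold change -0.60, adjusted P = 0.00165), and went from 13.7, 12.1 and 13.5 CPM to 3.40, 4.17 and 4.08 CPM after PKM2 knockdown (-1.75, adjusted P = 1.3e-07). The groups were separate in both, and the difference was -1.16 (adjusted P = 1.16e-05), or -0.59 and still called by limma on log2(TPM + 1). MMP14, the membrane protease that TIMP2 and TIMP3 inhibit, went from 256, 295 and 290.4 CPM to 433, 427 and 407 CPM after NONO knockdown (0.59, adjusted P = 1.78e-05) and from 218, 219 and 231 CPM to 179.7, 185 and 189 CPM after PKM2 knockdown (-0.27, adjusted P = 0.000248). MMP14 thus moved in the direction of ADAM15 in both, with a difference of -0.87 (adjusted P = 3.31e-08). It also moved in the direction of TIMP3, but the TIMP3 fall after PKM2 knockdown was small (-0.13) and was called in only 6 of 13 alternative runs.

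FURIN, the convertase that removes the prodomain of many ADAM and ADAMTS enzymes, was lower in both experiments (-0.21, adjusted P = 0.00556, and -0.98, adjusted P = 4.4e-08), with a difference of -0.79 (adjusted P = 8.92e-08). RHBDF1 and RHBDF2 encode the iRhom proteins that carry ADAM17 to the cell surface. RHBDF2 was at 42.6, 41.4 and 45.2 CPM in NC libraries and at 23.0, 24.5 and 20.7 CPM after PKM2 knockdown (-0.92, adjusted P = 4.22e-07), whereas RHBDF1 rose from 50.6, 47.8 and 50.3 CPM to 61.0, 64.7 and 69.0 CPM (0.39, adjusted P = 0.000126). Neither was called after NONO knockdown, where RHBDF2 was at 99.7% and RHBDF1 at 103% of NC, and the differences between the knockdowns were -0.93 (adjusted P = 4.23e-07) and 0.33 (adjusted P = 0.0422). The RHBDF1 difference was lost in all 3 settings of limma on TPM (adjusted P up to 0.152) and on leaving out any single library other than NC replicate 1 of the NONO experiment or PKM2 knockdown replicate 1 (adjusted P up to 0.119).

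A list of 24 substrates and ligands had 10 tested genes in the NONO experiment, with 2 lower and 4 higher beside 17.2% and 16.2% of all genes, and 12 in the PKM2 experiment, with 4 lower and 5 higher beside 34.7% and 33.6%. The medians were 0.0028 and 0.03. AREG, an EGF receptor ligand released by ADAM17, was the only one past a log2 fold change of 1 in both. It went from 2.16, 2.72 and 2.76 CPM to 4.69, 6.0 and 5.14 CPM after NONO knockdown (1.05, standard error 0.18, adjusted P = 0.00102) and from 2.32, 2.46 and 2.36 CPM to 5.18, 4.47 and 4.91 CPM after PKM2 knockdown (1.03, standard error 0.16, adjusted P = 0.00012). Neither pair of groups overlapped. The other tested EGF receptor ligands of the list did not all follow AREG. HBEGF was lower in both experiments (-0.19, adjusted P = 0.0195, and -0.90, adjusted P = 1.97e-06). TGFA was at -0.20 after NONO knockdown (adjusted P = 0.484) and at 1.55 after PKM2 knockdown (adjusted P = 1.55e-07). EREG, tested only in the PKM2 experiment, was higher there (1.88, adjusted P = 0.00339). These are RNA levels, and shedding, protease activity and protein were not measured here.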

How the data were processed

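RNA-seq of MDA-MB-231 cells was analysed in 12 libraries, 3 per group, grouped by the sample titles. The members and gene lists were chosen with earlier results of these data known. Libraries came from poly(A)-selected RNA with paired reads of 150 bases. In 1 table per experiment, the authors deposited fractional estimated counts and TPM values for each gene. The submitters' processing notes name fastp, HISAT2, StringTie, RSEM, DESeq2, edgeR, limma and hg19 without roles, and how reads shared between copies or strands were counted is not given in the sources used here. The authors' own fold changes and P values in these tables were not used, and 0 columns of values per library were left unused.

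The estimated counts were rounded. Each experiment (6 libraries) was fitted with edgeR 4.0.16 in R 4.3.3, using filterByExpr, TMM factors and the quasi-likelihood F test, and an interaction contrast was fitted over all 12. Standard errors were computed from the F statistic. Other fits used DESeq2 1.42.0, relative log expression factors, no count filter, a block, limma 3.58.1 on log2(TPM + 1) or log2(TPM + 0.1) where the mean TPM reached 1, limma without that filter, removal of the trend with gene length, and each library left out. The scripts were tested on simulated data, where edgeR recovered 200, 200 and 198 of 200 genes changed 4-fold for the NONO, PKM2 and interaction comparisons, with 7, 9 and 5 false calls. The changed genes were drawn from well counted genes, and every gene was given the same fixed dispersion. The recovery of smaller changes and of members with few counts was therefore not tested. Depth was 19861762 to 28455268 counts per library. Intervals and floors cover counting error only.

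Named with the value of every library were TIMP1 to TIMP4, ADAM9, ADAM10, ADAM15, ADAM17, and members called with an absolute log2 fold change of at least 1 or in opposite directions. Of the regulators and substrates, RHBDF1, RHBDF2, FURIN, RECK, MMP14 and those past 1 in both experiments were named. Library values of ADAM8, ADAM19, ADAMTS1 and ADAMTSL1 were added after they were seen. Gene positions and overlaps are from GENCODE 29 (GRCh38), in which 96.5% and 96.3% of the table identifiers were found. They serve for location only.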

Additional observations from a re-analysis of the deposited data

Results flagged for a closer look

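The log2 fold changes after the 2 knockdowns differed by the interaction test (PKM2 knockdown minus NONO knockdown, adjusted P below 0.05) for 17 members and for 11 of the 18 tested regulators, 5 of which are named above. The difference was above 0 for ADAM21 (2.36), ADAM10 (0.92), ADAMTS6 (0.82), TIMP2 (0.56) and ADAM17 (0.33). It was below 0 for ADAM23 (-3.07), ADAMTS3 (-2.31), ADAM15 (-1.60), ADAM11 (-1.49), ADAMTS7 (-1.43), ADAM22 (-1.32), TIMP3 (-1.09), ADAMTSL5 (-0.54), ADAMTSL4 (-0.39), ADAMTS12 (-0.35), ADAM19 (-0.27) and ADAM9 (-0.15). Of the 5 named regulators, RHBDF1 (0.33) lay above 0, and RECK (-1.16), RHBDF2 (-0.93), MMP14 (-0.87) and FURIN (-0.79) lay below. The calls for ADAM9, ADAM19 and RHBDF1 were lost on leaving out most single libraries, and that for ADAM23 turned in sign under 1 fit of limma on TPM. ADAM21 passed the count filter in the PKM2 experiment only, through the libraries where it was higher. Of all 15995 genes tested, 53.1% were called.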

How the results depend on the processing

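Counts of called members were lower under limma on TPM, which tested 22 members in the NONO experiment and 21 in the others with the filter, and 30, 34 and 35 without it. With log2(TPM + 1), log2(TPM + 0.1) and no TPM filter, lower members after NONO knockdown numbered 5, 5 and 5 (8 in edgeR), higher members 2, 2 and 2 (5), lower members after PKM2 knockdown 7 and 7 with the filter (12), higher members 2, 2 and 4 (7), and called differences 7, 7 and 8 (17). By the study's cutoffs, PKM2 knockdown gave 1, 3 and 1 lower (6) and 0, 0 and 0 higher (1). Leaving out single libraries gave 5 to 8 and 4 to 6 members after NONO knockdown, 11 to 12 and 5 to 7 after PKM2 knockdown, 14 to 17 differences, and by the study's cutoffs 1 to 3 lower after NONO knockdown and 6 to 7 lower and 0 to 1 higher after PKM2 knockdown. The 8 lower members became 5 without NC replicate 2 or 3 or knockdown replicate 3.

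The sign of the ADAM23 difference, -3.07 in edgeR, turned to 0.10 under limma without the TPM filter. That of ADAM8 after PKM2 knockdown, 0.21 in edgeR, turned to -0.01 on log2(TPM + 1). Among values not called in edgeR, ADAMTS17 (0.33) and ADAM12 (0.18) after NONO knockdown reached -0.025 and -0.029 in the alternatives. The differences of ADAMTS16 (0.21) and ADAM8 (0.14) reached -0.014 and -0.011. The ADAMTS1 difference ranged from -0.12 to 0.35, ADAM32 after NONO knockdown from -0.18 to 0.30, and ADAMTS16 after PKM2 knockdown from -0.23 to 0.10. The other signs that turned belonged to values near 0 in edgeR. Under limma, ADAM9 after PKM2 knockdown was at -0.12 in all 3 settings and TIMP2 after NONO knockdown at -0.029 in all 3. RHBDF2 after NONO knockdown was at 0.0043 in DESeq2, 0.0028 with relative log expression factors and 0.00013 without the count filter. Leaving out single libraries turned values after NONO knockdown of TIMP1 (-0.021 to 0.18), RHBDF1 (-0.078 to 0.17) and RHBDF2 (-0.051 to 0.039), and the differences of TIMP1 (-0.028 to 0.18) and AREG (-0.098 to 0.079). The cause of these changes was not tested.

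Same-numbered NC and knockdown libraries did not deviate together (correlations of -0.205, 0.0953 and -0.127 in the NONO experiment and -0.167, -0.0239 and 0.119 in the PKM2 experiment), so the numbers were not taken as pairs. With a replicate block, 7 lower and 5 higher members were called after NONO knockdown, 11 and 8 after PKM2 knockdown, and 15 differences. The median log2 fold change of all genes after PKM2 knockdown was -0.10 under limma with a pseudocount of 0.1 TPM, against -0.01 in edgeR. Members under about 1 CPM, such as ADAM23 and ADAM21, are limited by depth.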

Other observations

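Deposited TPM and counts did not move together for every member. ADAMTS16 was at 19.7 to 20.2 CPM in the 3 NC libraries of the NONO experiment, but at 25.9 TPM in NC replicate 2, and the ratio of TPM to CPM spanned 4.37 times over the 6 libraries of that experiment. The same ratio spanned 1.82 times for ADAMTSL5 in the NONO experiment 1.60 times for ADAMTS1 in the PKM2 experiment and 1.40 times for ADAM15 in the NONO experiment.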
